A study of Homo sapiens with 6 samples.

Results

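The genes described here are 59 nuclear genes that encode subunits of respiratory complexes I, II, III and IV, found by symbol from a list of known subunits. All 59 were found among the 62443 genes of the deposited table, and all 59 reached an average of 1 FPKM, the minimum used for testing (FPKM is the number of fragments scaled to gene length and to the mapped total). They comprise 36 subunits of complex I, 4 of complex II, 9 of complex III and 10 of complex IV. RNA was sequenced from HGC-27, an established human gastric cancer cell line, grown with fetal bovine serum and glutamine. The Con group (3 samples) carries no treatment in the labels, whereas the methods of the study give the storage buffer of the peptide as negative control. The GLUP group (3 samples) received GLUP, a cross-linked macrocyclic peptide built from the TEAD4-binding part of VGLL4 and designed to join TEAD4 molecules together. The sources give different lengths of treatment in different places, so that no time is stated here. No genetic change separates the groups, and a single cell line was used. Whether the 3 samples of a group came from separate cultures is not said for each sample, so that the p-values measure only the spread between these samples.

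The respiratory chain of the inner mitochondrial membrane passes electrons from NADH (through complex I) and from succinate (through complex II) to ubiquinone, then through complex III and cytochrome c to complex IV, which reduces oxygen. Complexes I, III and IV pump protons as they do so, and ATP synthase uses the resulting gradient. Complexes I, III and IV are assembled from subunits of nuclear and mitochondrial genes, whereas complex II is made of nuclear gene products alone. Many nuclear genes of the chain have promoters with sites for NRF1, for ETS family factors such as GABP and for YY1. TEAD factors, the target of the peptide, bind a motif often written GGAATG.

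The stretch before the start of a gene is shown for the 3 members with the lowest and the 3 with the highest fold change among those whose Con and GLUP values did not overlap. These are the 120 bases directly upstream of the RefSeq start (GRCh38.p14), printed 5′ to 3′ on the strand of the gene. Capitals mark matches on either strand to CGCANGCG (the core of the NRF1 motif) or CCGGAAG (an ETS family motif).
NDUFA12, minus strand, chr12:95003698-95003817: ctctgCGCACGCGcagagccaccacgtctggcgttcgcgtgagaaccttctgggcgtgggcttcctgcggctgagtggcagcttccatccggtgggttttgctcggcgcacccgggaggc
NDUFS3, plus strand, chr11:47578954-47579073: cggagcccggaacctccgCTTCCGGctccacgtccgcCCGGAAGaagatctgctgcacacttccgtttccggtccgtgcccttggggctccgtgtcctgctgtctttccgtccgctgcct
SDHD, plus strand, chr11:112086753-112086872: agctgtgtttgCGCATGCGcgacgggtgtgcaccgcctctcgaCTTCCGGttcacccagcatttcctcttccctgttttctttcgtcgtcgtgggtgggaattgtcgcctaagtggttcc
NDUFB7, minus strand, chr19:14572067-14572186: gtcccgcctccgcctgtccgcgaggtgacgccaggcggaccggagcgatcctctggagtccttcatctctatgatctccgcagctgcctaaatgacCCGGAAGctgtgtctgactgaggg
NDUFB11, minus strand, chrX:47144703-47144822: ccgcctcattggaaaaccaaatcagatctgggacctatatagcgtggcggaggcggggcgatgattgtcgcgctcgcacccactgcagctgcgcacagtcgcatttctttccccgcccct
SDHA, plus strand, chr5:218200-218319: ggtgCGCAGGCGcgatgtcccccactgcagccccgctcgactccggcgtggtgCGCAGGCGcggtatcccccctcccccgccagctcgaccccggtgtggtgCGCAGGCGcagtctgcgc

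SDHA carried 3 matches to the NRF1 letters in this stretch, starting 116, 67 and 18 bases before the start. SDHD held one match to each motif, and NDUFS3 held ETS letters 102 and 83 bases before its start. No match to these letters was present in the 120 bases of NDUFB11. In the longer RefSeq window of 250 bases before to 50 after the start, which was at hand for 51 of the 59 members, CGCANGCG was present in 17 (33.3%) against 10.6% of all 27305 promoters of that length. CCGGAAG was found in 15 member windows (29.4%) against 10.7%, and AANATGGCG, the motif of YY1, in 15 (29.4%) against 3.37%. GGAATG was present in 4 member windows (7.84%), those of COX5A, NDUFA13, UQCR10 and UQCRC1, against 3836 of all 27305 promoters. Both strands were searched, and the ETS and TEAD motifs have the letters GGAA in common. These matches describe letters and not binding.

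Over the whole table the 6 libraries held FPKM totals between 909735 and 965147, and the read depth behind the values was not recovered. The cell line expressed vimentin (VIM, mean 325 FPKM) with little keratin (KRT8, KRT18 and KRT19, means of 1.08 to 1.86 FPKM). The other mesenchymal markers were low, with means of 6.91 FPKM for ZEB1, 1.23 FPKM for FN1 and 0.0117 FPKM for CDH2. The epithelial markers EPCAM and CDH1 had at most 0.124 FPKM in any library. Of 6 gastric mucosa markers 5 were listed at 0 in all libraries. Leukocyte markers and VWF, an endothelial marker, reached at most 0.0394 FPKM, and of the fibroblast markers DCN averaged 24.6 FPKM and COL1A1 4.1 FPKM. Con replicate 2 stood apart from the other libraries, with a mean correlation of 0.898 with them, against 0.954 to 0.964 for the others. It differed by more than 2-fold from the median of the other 5 libraries in 21 of the 59 members (13 above and 8 below). That is 35.6% of the members, against 31.2% of all 7406 genes tested. For this reason fold changes without Con replicate 2 are given beside those of named members that it moved most.

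Transcript levels of the members were unequal by a wide margin. NDUFB9, a complex I subunit of the membrane arm, was the most abundant at a mean of 22194 FPKM, followed by NDUFA13 at 6484 FPKM and NDUFB8 at 4437 FPKM. NDUFB9 alone took 2.08 to 2.64% of the FPKM total of a library, and it overlaps MTSS1 and TATDN1 on the other strand, whose reads cannot be told apart without strand information. The lowest were NDUFS1, the largest iron-sulfur subunit of complex I, at 2.49 FPKM and SDHA, the catalytic flavoprotein of complex II, at 6.001 FPKM. The highest member mean was thus 8923 times the lowest. Complex IV had the narrowest range, with means between 236 and 2453 FPKM (10.4-fold), whereas the means of complex III spanned 233-fold, from CYC1 at 14.8 FPKM to UQCRQ at 3451 FPKM. Another tested gene overlaps 16 of the members. Members with annotated pseudogene copies numbered 36, and for such short transcripts reads may have been split between copies.

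**Figure D1:**
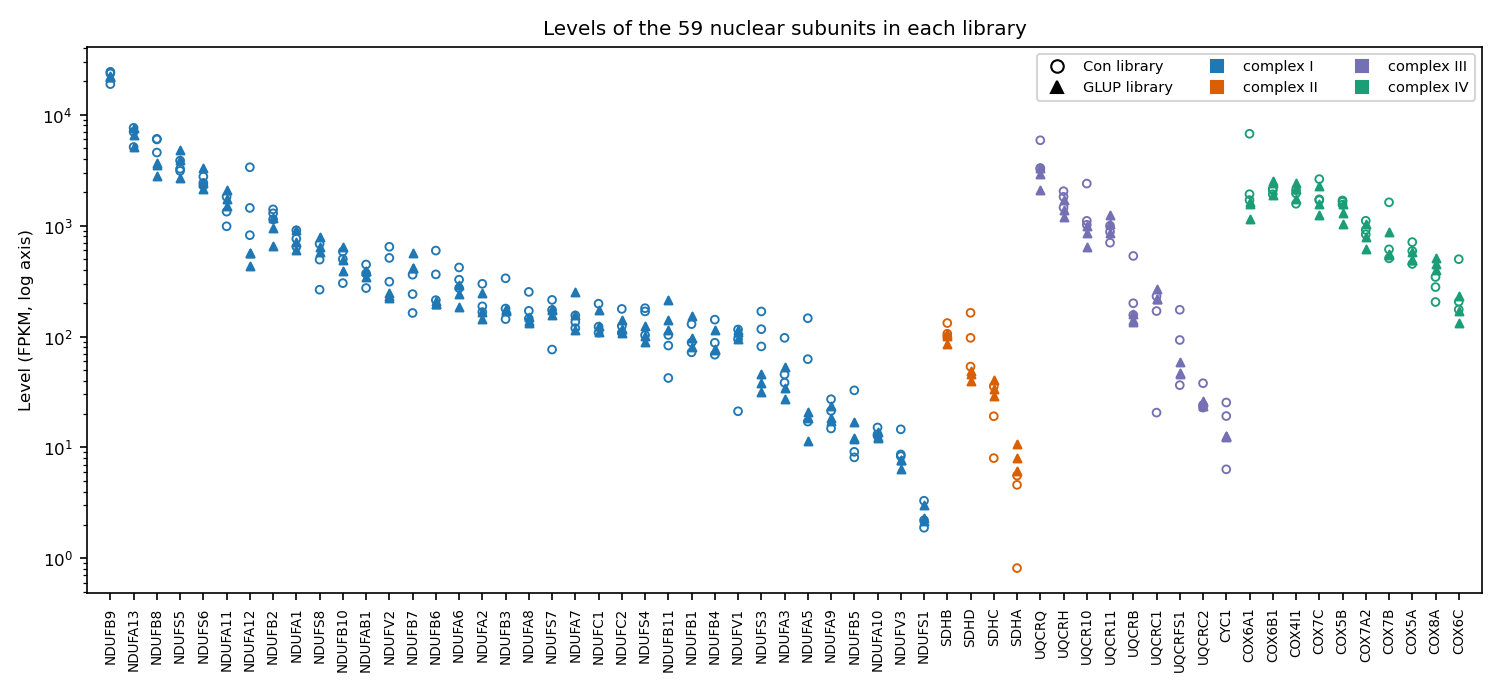
FPKM of each of the 59 subunits (x axis, sorted by mean level within complexes I to IV) in each of the 6 libraries, on a log axis; open circles are Con and filled triangles are GLUP libraries. Most genes keep their place in both groups, from NDUFB9 at a mean of 22194 FPKM to NDUFS1 at 2.49 FPKM, and the single open circles far from the rest belong mostly to Con replicate 2.

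The comparison of GLUP with Con asked whether the peptide altered the RNA levels of these subunits. In limma on log2(FPKM + 1), with p-values adjusted by Benjamini-Hochberg across the 7406 genes tested, no member passed an adjusted p of 0.05, as no gene of the whole table did (0.0%). The smallest adjusted p was 0.194 among the members and 0.0806 among all genes. At an unadjusted p of 0.05, 7 members were lower in GLUP (11.9%, against 17.2% of all genes tested) and 4 were higher (6.78%, against 4.46%). Values of all 3 GLUP libraries lay below those of all 3 Con libraries in 9 members (15.3%, against 22.7% of all genes) and above them in 4 (6.78%, against 7.55%). These shares were near those of the table as a whole in the higher direction and under them in the lower direction.

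Fold changes are log2 differences of group means on the log2(FPKM + 1) scale, GLUP minus Con, with the standard error (SE) of limma and n = 3 in each group. Mean levels were lower in GLUP for 39 of the 59 members (66.1%), against 65.5% of all genes. The median member had a log2 fold change of −0.15 and the median of all genes was −0.23, a difference of 0.08. With each library centred on the median of all genes, 22 members (37.3%, against 47.5% of all genes) were lower and the member median was 0.12, so that the direction of the median and the split depend on the scaling. Without Con replicate 2, 33 members (55.9%, against 67.6% of all genes) were lower by mean. In that setting 7 members were lower (11.9%, against 14.8%) and 4 higher (6.78%, against 3.93%) at an unadjusted p of 0.05, and 12 lower (20.3%, against 28.7%) and 5 higher (8.47%, against 9.21%) did not overlap. By complex the median was −0.06 for complex I, 0.35 for complex II, −0.32 for complex III and −0.25 for complex IV, of which complexes I and IV turned positive with that centring (0.20 and 0.01). Without Con replicate 2 these medians were −0.05, 0.07, −0.27 and −0.09. In the main fit 5 members had means more than 2-fold lower and 3 more than 2-fold higher, and 51 of 59 stayed within 2-fold. The same count was not taken over all genes. Of the members beyond 2-fold, only NDUFA12 (−1.07) and NDUFS3 (−1.60) remained so without Con replicate 2.

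**Figure D2:**
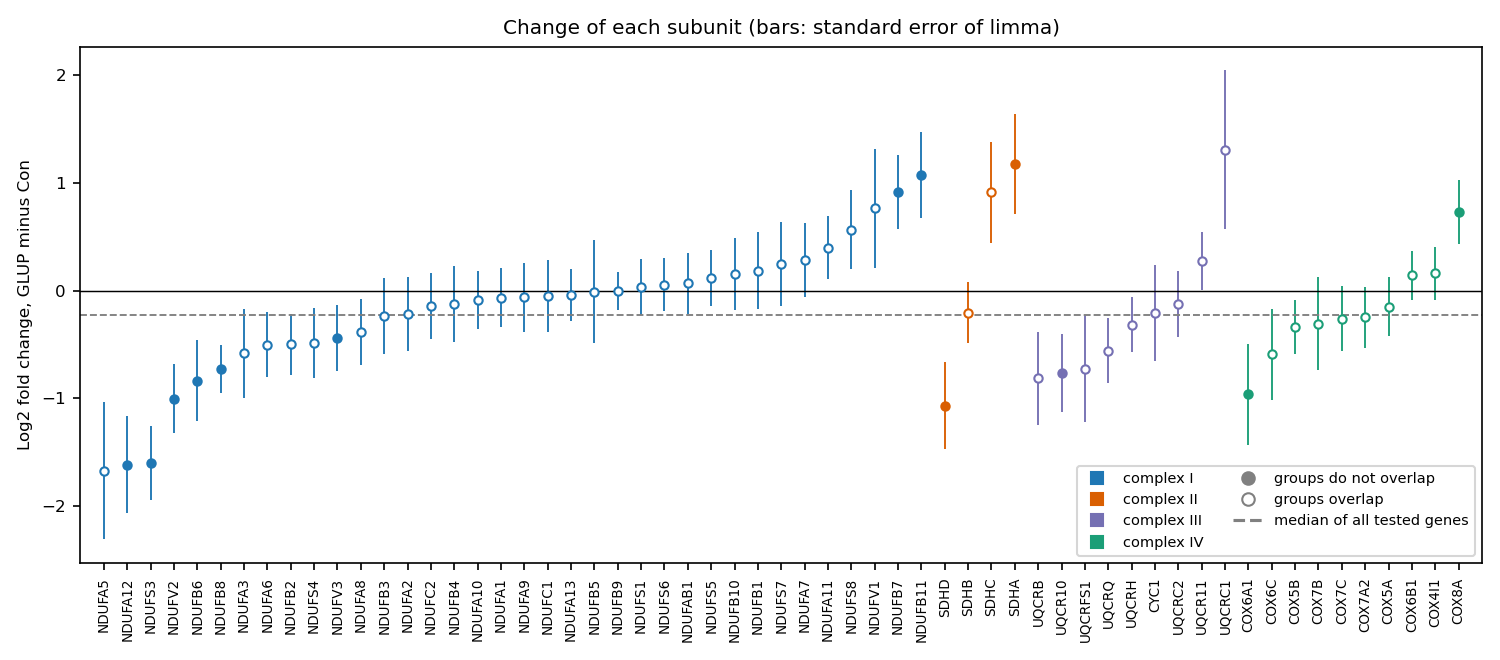
Log2 fold change of GLUP against Con for each member (y axis), sorted within complexes I to IV, with bars of 1 SE from limma (3 libraries a group); filled points are members whose groups do not overlap, and the dashed line is the median of all 7406 genes tested, −0.23. No member passed the adjusted threshold, and the members spread on both sides of the line, from NDUFA5 at −1.67 to UQCRC1 at 1.31.

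One library decided the number of calls. When Con replicate 3 was left out, 8 members passed the adjusted threshold, 7 lower (11.9%, against 16.3% of all genes) and 1 higher (1.69%, against 2.2%). The 7 lower genes were NDUFA5, NDUFA12, NDUFS3, NDUFV2, NDUFB6, NDUFB8 and SDHD, and the higher one was NDUFB7. With this library in the fit the same genes did not pass. Leaving out any other library called no member.

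In complex I, the peripheral arm oxidises NADH and hands electrons to ubiquinone, and its 6 listed core subunits had fold changes of both signs. NDUFS3, a core subunit of the ubiquinone-binding module, had 168, 116 and 81.4 FPKM in the Con libraries (replicates 1 to 3, an order kept below) and 31.4, 38.0 and 45.7 FPKM under GLUP. Every GLUP library was below every Con library. Its log2 fold change of −1.60 (SE 0.35) corresponds to 3.03-fold lower, was −1.60 without Con replicate 2 and ranked among the 3 lowest of the complex, with an adjusted p of 0.194. NDUFS3 overlaps PTPMT1 on the same strand and CELF1 on the other, so that its value is uncertain.

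NDUFV2, an iron-sulfur subunit of the NADH-oxidising module, had 645, 511 and 312 FPKM in Con and 220, 234 and 246 FPKM in GLUP. The groups did not overlap, and the GLUP libraries lay close together (233 ± 12.9 FPKM, SD, n = 3) beside a wider Con group (489 ± 167 FPKM). The log2 fold change was −1.005 (SE 0.32, adjusted p 0.194) and −0.94 without Con replicate 2. Its partner NDUFV1, which binds NADH and the flavin, had 94.6, 21.2 and 116 FPKM in Con against 113, 109 and 95.3 FPKM in GLUP. Here Con replicate 2 alone was low, and the log2 fold change of 0.76 (SE 0.55) went to 0.01 without that library.

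The remaining listed core subunits overlapped between the groups. NDUFS1 ranged from 1.88 to 3.30 FPKM in Con and from 2.18 to 3.04 FPKM in GLUP, with a log2 fold change of 0.03 (SE 0.26) that was 0.20 without Con replicate 2. NDUFS7, an iron-sulfur subunit beside the ubiquinone site, had 214, 76.3 and 174 FPKM in Con against 173, 177 and 156 FPKM in GLUP, and its fold change of 0.25 turned to −0.19 without Con replicate 2. NDUFS8, which carries further iron-sulfur clusters of the same module, ranged from 264 to 685 FPKM in Con and from 573 to 794 FPKM in GLUP (0.57, SE 0.36, and 0.19 without Con replicate 2). Of the 6 core genes 2 were thus lower (33.3%, against 65.5% of all genes) and 4 higher by mean. The 2 lower ones had an unadjusted p under 0.05 (33.3%, against 17.2% of all genes).

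Among the 30 accessory subunits of complex I, 21 had lower means in GLUP (70%, against 65.5% of all genes) and 9 higher. With median centring 10 were lower (33.3%, against 47.5%) and 20 higher. NDUFA12, which sits where the modules of the peripheral arm meet, had 1444, 3360 and 820 FPKM in Con and 430, 569 and 564 FPKM in GLUP. All GLUP values were below all Con values, and Con replicate 2 was the farthest out. The log2 fold change was −1.61 (SE 0.45, adjusted p 0.194), or 3.06-fold lower, and −1.07 without Con replicate 2. NDUFA5, an accessory subunit bound to the ubiquinone module, had 62.5, 146 and 17.1 FPKM in Con against 11.5, 20.7 and 18.4 FPKM in GLUP. Its groups overlapped, since Con replicate 3 lay within the GLUP range, and the fold change of −1.67 (SE 0.64) became −0.96 when Con replicate 2 was left out and −2.48 when Con replicate 3 was.

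NDUFB6 and NDUFB8, named here because they complete the 7 lower members, are accessory subunits of the membrane arm. NDUFB8 had 6061, 5989 and 4560 FPKM in Con and 2823, 3495 and 3693 FPKM in GLUP, a log2 fold change of −0.73 (SE 0.23) and −0.67 without Con replicate 2. The NDUFB8 groups did not overlap, but the gene itself overlaps HIF1AN on the other strand and an unnamed gene on its own. NDUFB6 lay at 213 to 595 FPKM in Con and 195 to 210 FPKM in GLUP (−0.84, SE 0.37, and −0.47 without Con replicate 2). SMIM27 overlaps NDUFB6 on the other strand.

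On the higher side stood other membrane-arm subunits. NDUFB11 had 82.9, 42.2 and 103 FPKM in Con and 115, 140 and 214 FPKM in GLUP. Each GLUP library exceeded each Con library, and the log2 fold change of 1.07 (SE 0.40, adjusted p 0.198) was 0.70 without Con replicate 2. RBM10 overlaps NDUFB11 on the other strand. NDUFB7 had 241, 163 and 361 FPKM in Con and 412, 411 and 564 FPKM in GLUP, without overlap. Its log2 fold change of 0.91 (SE 0.34, adjusted p 0.198) was 0.63 without Con replicate 2. The subunits of the membrane arm therefore differed in direction among themselves, with NDUFB6 and NDUFB8 below and NDUFB7 and NDUFB11 above Con. The other accessory subunits had log2 fold changes between −0.58 (NDUFA3, −0.18 without Con replicate 2) and 0.40 (NDUFA11, 0.18 without it), and the most abundant of all, NDUFB9, had 18888 to 24386 FPKM in Con and 21917 to 22439 FPKM in GLUP (0.00, SE 0.17).

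Complex II, the succinate dehydrogenase of the citric acid cycle, showed opposite values among its 4 genes. SDHD, one of its membrane anchors, had 97.2, 164 and 53.5 FPKM in Con and 46.2, 49.2 and 39.3 FPKM in GLUP. Groups did not overlap, the log2 fold change was −1.07 (SE 0.40, adjusted p 0.198), and it was −0.68 without Con replicate 2. SDHC, the other anchor, had 35.5, 8.002 and 19.1 FPKM in Con and 29.3, 33.7 and 40.8 FPKM in GLUP, with overlapping groups. Its log2 fold change of 0.91 (SE 0.47) was 0.38 without Con replicate 2.

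SDHA, the flavoprotein that oxidises succinate, had 5.57, 0.815 and 4.59 FPKM in Con and 8.08, 10.8 and 6.14 FPKM in GLUP. All GLUP values were above all Con values at these low levels, and the log2 fold change of 1.17 (SE 0.47, adjusted p 0.203) was 0.59 without Con replicate 2, whose 0.815 FPKM was the lowest value. SDHB, the iron-sulfur subunit, had 132, 106 and 99.6 FPKM in Con and 85.0, 101 and 106 FPKM in GLUP (−0.20, SE 0.29, and 0.06 with median centring). SDHA overlaps an unnamed gene on its own strand and has 4 annotated copies, with a summed mean of 3.14 FPKM, and SDHD has 6, with 1.78 FPKM. The upstream stretches printed above for SDHD and SDHA both hold NRF1 letters, and a relation of such matches to fold changes was not tested.

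**Figure D3:**
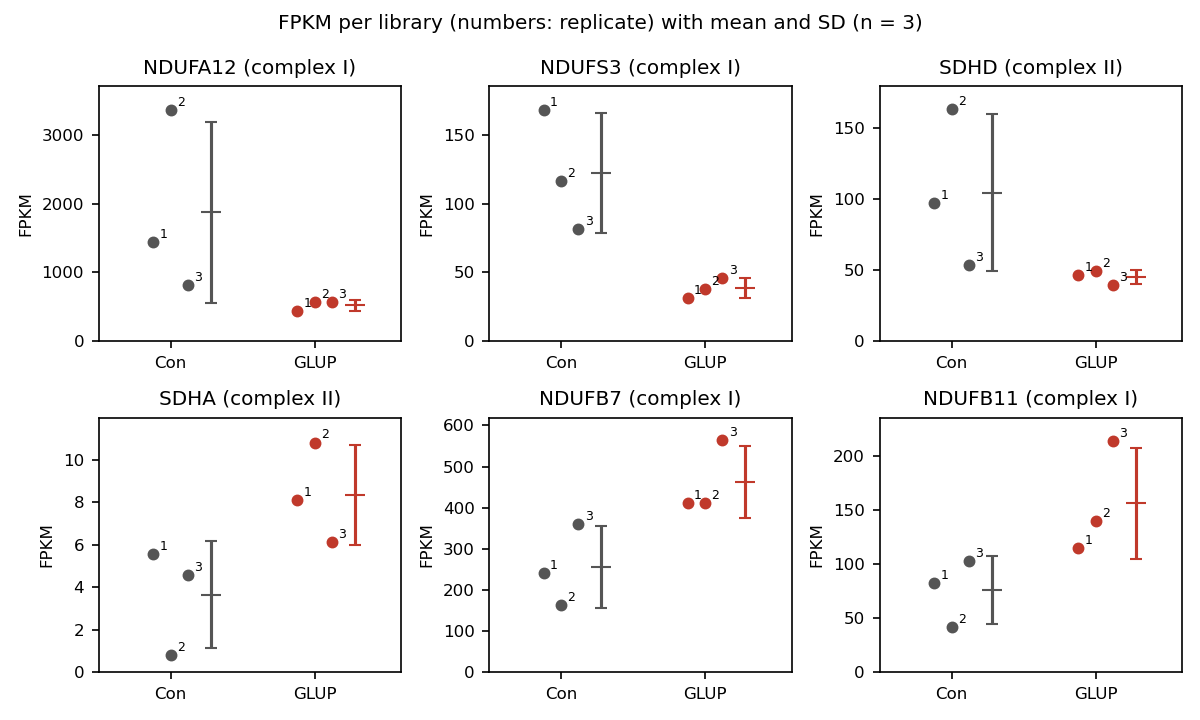
FPKM in each library (y axis, from 0) for NDUFA12, NDUFS3 and SDHD, the lowest, and SDHA, NDUFB7 and NDUFB11, the highest of the members whose groups do not overlap; numbers beside points are replicates, and bars are mean and SD (n = 3). In NDUFA12 and SDHD the highest point is Con replicate 2, at 3360 and 164 FPKM, and in SDHA, NDUFB7 and NDUFB11 the lowest point is the same library.

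In complex III, which moves electrons from ubiquinol to cytochrome c, no member had an unadjusted p under 0.05. Of its 9 members 7 had lower means in GLUP (77.8%, against 65.5% of all genes), and 5 with median centring (55.6%, against 47.5%). UQCRFS1, the Rieske iron-sulfur protein, had 174, 36.4 and 93.0 FPKM in Con and 58.5, 47.3 and 46.3 FPKM in GLUP. The Con libraries lay on both sides of the GLUP libraries, and the log2 fold change of −0.73 (SE 0.50) became −1.32 when Con replicate 2 was left out and −0.21 when Con replicate 1 was. CYC1, cytochrome c1, had 25.4, 6.34 and 19.2 FPKM in Con against a narrow 12.5 to 12.7 FPKM in GLUP (−0.21, SE 0.44), a value that was −0.76 without Con replicate 2 and 0.06 with median centring.

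The core proteins UQCRC1 and UQCRC2, which hold the complex together on its matrix side, differed in value. UQCRC1 had 170, 20.6 and 230.5 FPKM in Con and 267, 219 and 219 FPKM in GLUP. Its log2 fold change of 1.31 (SE 0.74) was the highest of all members, yet rested on Con replicate 2, since it was 0.24 without that library. UQCRC2 ranged from 22.8 to 37.9 FPKM in Con and from 23.7 to 26.3 FPKM in GLUP (−0.13, SE 0.31, −0.26 without Con replicate 2 and 0.14 with median centring). The small subunits UQCRB and UQCR10 had the lowest values of the complex. An unnamed gene overlaps UQCR10 on the other strand. UQCR10 had 1018, 2395 and 1104 FPKM in Con and 637, 861 and 1001 FPKM in GLUP. It was the only member of complex III whose groups did not overlap, with a fold change of −0.76 (SE 0.36) and −0.37 without Con replicate 2. For UQCRB it was −0.81 (SE 0.43), and −0.29 without that library, and for UQCR11, another small subunit, 0.28 (SE 0.27) and 0.14 without it.

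Complex IV, cytochrome c oxidase, had the smallest spread of fold changes among its members (SD 0.46, against 0.63 in complex I, 0.67 in complex III and 1.04 in complex II). COX4I1, COX5A and COX5B, nuclear subunits bound to the catalytic core, all overlapped between groups. COX4I1 had 1575, 1955 and 2093 FPKM in Con and 1743, 2126 and 2432 FPKM in GLUP (0.16, SE 0.25), and EMC8 overlaps it on the other strand. COX5A ranged from 451 to 710 FPKM in Con and from 490 to 574 FPKM in GLUP (−0.15, SE 0.28, −0.32 without Con replicate 2 and 0.12 with median centring), and COX5B from 1546 to 1686 FPKM in Con and from 1031 to 1581 FPKM in GLUP (−0.34, SE 0.25).

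COX8A, a small membrane subunit, was the one member of complex IV with an unadjusted p under 0.05. It had 279, 205 and 344 FPKM in Con and 394, 448 and 509 FPKM in GLUP, all GLUP values above all Con values, with a fold change of 0.73 (SE 0.30, adjusted p 0.204) and 0.53 without Con replicate 2. COX6A1, the ubiquitous form of subunit 6A, had 1920, 6737 and 1699 FPKM in Con and 1150, 1627 and 1583 FPKM in GLUP. The groups did not overlap, although the gap was small, and the fold change of −0.96 (SE 0.47) was −0.33 without Con replicate 2. Its 7 annotated copies had a summed mean of 135 FPKM. COX6C (−0.59, SE 0.42, and −0.13 without Con replicate 2) and COX6B1 (0.14, SE 0.23) completed the ends of the range in this complex.

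The place of Con replicate 2 recurs across the members. It was the highest of the 6 libraries in 27 of 59 members and the lowest in 18. The median SD of log2(FPKM + 1) was 0.44 in Con and 0.25 in GLUP over the members, and 0.43 and 0.20 over all genes tested. In complexes II and III the Con SD was largest, at a median of 0.90 and 0.68, beside 0.20 and 0.18 in GLUP. The members together held 7.13, 9.45 and 7.26% of the FPKM total under Con and 6.03, 6.88 and 7.55% under GLUP. These shares overlapped between the groups, with Con replicate 2 the highest.

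**Figure D4:**
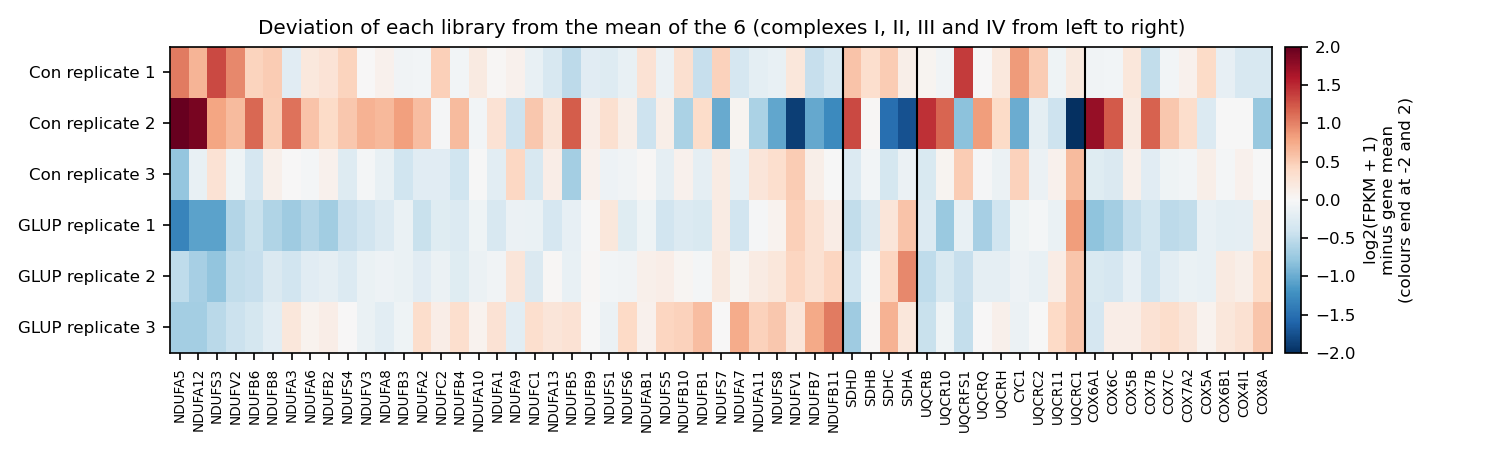
Each column is a member, sorted by fold change within complexes I to IV, each row a library, and the colour is log2(FPKM + 1) minus the gene's mean over the 6 libraries (red above, blue below, colours ending at −2 and 2). Strong colours gather in the row of Con replicate 2, which was highest in 27 and lowest in 18 of the 59 members.

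Fold changes of the members were related to the base composition of their transcripts. Across the 59 members the Spearman correlation of the log2 fold change with GC content was 0.53 and with transcript length −0.17. Across the 7388 tested genes with known composition these were 0.55 and −0.21. The points are genes of the same 6 libraries and are not independent. When all tested genes were cut into 3 equal parts by GC content, 12 of the 13 members in the lowest part, 19 of 23 in the middle and 8 of 23 in the highest (34.8%) had lower means in GLUP. Among all genes 89.4, 72.2 and 34.9% did so. Of the members named above, NDUFA5 had the lowest GC content (34.6%) and NDUFB7 was at 64.9%, whereas NDUFS3 was at 53.7%. With the trend in GC content and length removed from each library, the log2 fold change of NDUFS3 was −1.65, that of NDUFA12 −1.27, of NDUFA5 −1.06 and of SDHD −0.48. On the higher side it was 1.18 for SDHA, 0.92 for NDUFB11, 0.76 for NDUFB7 and 0.60 for COX8A. The part of base composition in these values was not tested.

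**Figure D5:**
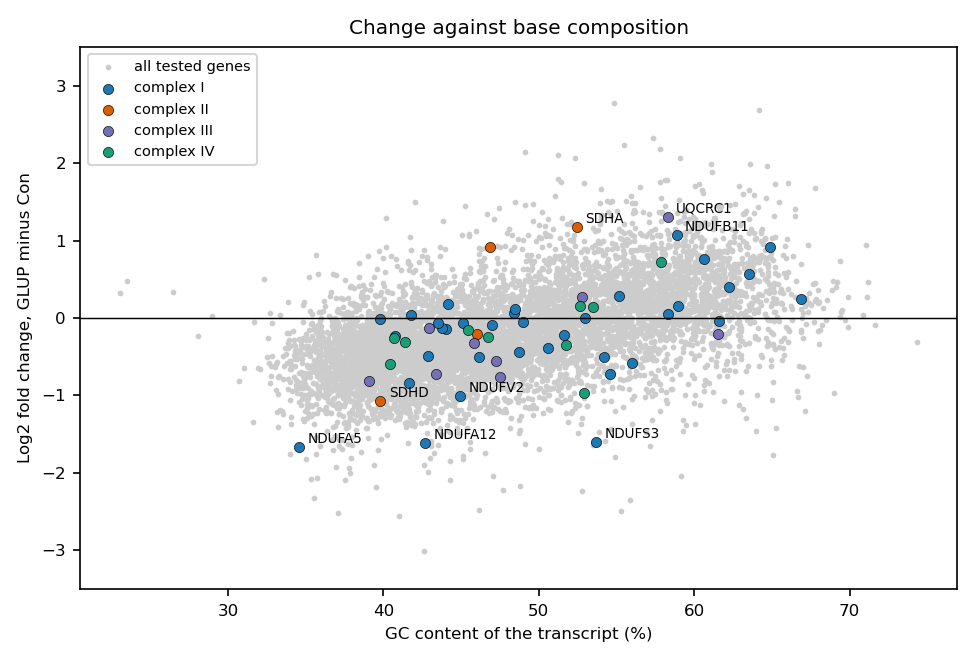
GC content of the transcript (x axis, %) against log2 fold change of GLUP over Con (y axis); grey points are the tested genes, coloured points the 59 members by complex, and names mark members beyond 1 log2 unit. Members follow the slope of the grey cloud (Spearman 0.53 over members, 0.55 over all), and NDUFS3, at 53.7% GC and −1.60, lies below it.

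Assembly factors build these complexes without remaining in them, and none of the tested ones passed the adjusted threshold. For complex IV, 21 of 24 tested factors (87.5%, against 65.5% of all genes) had lower means in GLUP. With median centring 19 did (79.2%, against 47.5%). The median log2 fold change was −0.60 (−0.23 for all genes), and −0.33 (0.03 for all genes) with median centring. At an unadjusted p of 0.05, 9 were lower (37.5%, against 17.2% of all genes) and 1 was higher (4.17%, against 4.46%), and in 12 (50%, against 22.7%) all GLUP values lay below all Con values. HIGD1A, a small inner membrane protein associated with the oxidase, had 118, 137 and 51.7 FPKM in Con and 30.2, 34.3 and 28.5 FPKM in GLUP (−1.58, SE 0.39, adjusted p 0.194). COX20, a chaperone of the mitochondrially encoded subunit COX2, had 127, 173 and 61.6 FPKM in Con and 41.4, 38.6 and 51.0 FPKM in GLUP (−1.33, SE 0.40). In both, every GLUP library was lower than every Con library. SCO2, a copper chaperone, was higher by mean (1.43, SE 0.49), with 2.02, 0.0559 and 3.25 FPKM in Con and 7.32, 6.66 and 3.20 FPKM in GLUP, and COA8 had 0.65 (SE 0.41).

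The complex I assembly factors were mixed, with 13 of 18 lower by mean (72.2%, against 65.5% of all genes) and 3 lower at an unadjusted p of 0.05 (16.7%, against 17.2%). Their median of −0.46 was −0.19 with median centring, −0.24 without GLUP replicate 1 and 0.15 with the trend in GC content and length removed, so that its sign depends on the processing. TMEM126B, which acts in building the membrane arm, had 48.5, 83.1 and 21.1 FPKM in Con and 12.8, 15.6 and 14.5 FPKM in GLUP (−1.56, SE 0.45, adjusted p 0.194). Its partner NDUFAF1 had 14.6, 19.2 and 7.09 FPKM in Con and 4.91, 4.94 and 5.74 FPKM in GLUP (−1.14, SE 0.36). The groups of both genes were separate. NDUFAF3 (0.63, SE 0.31) and DMAC2 (0.63, SE 0.41) had the highest values of the list. In DMAC2 Con replicate 2 was low, with 8.53, 2.16 and 7.17 FPKM in Con and 9.17, 8.45 and 8.58 FPKM in GLUP. For complex III, 1 of 6 factors had an unadjusted p under 0.05 (16.7%, against 21.7% of all genes in either direction). This was LYRM7, which stabilises the Rieske protein UQCRFS1 before its insertion. LYRM7 had 23.3, 17.6 and 6.46 FPKM in Con and 6.005, 3.04 and 5.46 FPKM in GLUP (−1.40, SE 0.45). TTC19 stood at −0.68 (SE 0.30), BCS1L at 0.40 (SE 0.44) and UQCC3 at 0.25 (SE 0.29). In BCS1L Con replicate 2 was low, with 37.8, 10.5 and 30.0 FPKM in Con and 28.7, 29.6 and 33.7 FPKM in GLUP. None of the 3 tested factors of complex II had an unadjusted p under 0.05, with a range from −0.62 (SDHAF3) to 0.02 (SDHAF1).

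Electron carriers and the enzymes that supply them had 8 of 13 tested genes lower by mean (61.5%, against 65.5% of all genes). The groups did not overlap in 7 lower genes (53.8%, against 22.7%) and in 1 higher gene (7.69%, against 7.55%), and with median centring in 3 lower (23.1%, against 13.2%) and 2 higher (15.4%, against 15.6%). COQ3, a methyltransferase of ubiquinone synthesis, had 9.71, 7.81 and 4.52 FPKM in Con and 3.31, 2.67 and 2.35 FPKM in GLUP (−1.10, SE 0.31, adjusted p 0.194). ETFDH, which passes electrons of fatty acid oxidation to ubiquinone, was at −0.96 (SE 0.32), whereas COQ4 was at 0.53 (SE 0.43) and COQ9 at 0.45 (SE 0.37). Cytochrome c itself (CYCS) had 228, 110 and 131 FPKM in Con and 135, 133 and 165 FPKM in GLUP, a log2 fold change of −0.05.

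ATP synthase runs on the gradient made by these complexes. Of its 18 nuclear subunits 12 were lower by mean (66.7%, against 65.5% of all genes), with a median of −0.15. At an unadjusted p of 0.05, 3 were lower (16.7%, against 17.2%) and 2 higher (11.1%, against 4.46%). With centring on the median of all genes 7 were lower (38.9%, against 47.5%) and the median was 0.11. The ends of the ATP synthase list were ATP5PF (−1.27, SE 0.40) and ATP5F1A (1.07, SE 0.44). ATP5PF had 1944, 4099 and 1243 FPKM in Con and 715, 952 and 1043 FPKM in GLUP, with Con replicate 2 the farthest out. ATP5F1A had 223, 95.4 and 193 FPKM in Con and 257, 593 and 249 FPKM in GLUP. There Con replicate 2 was low and GLUP replicate 2 high. The 11 mitochondrially encoded subunits of complexes I, III and IV had a median of 0.02, with 5 lower by mean (45.5%, against 65.5% of all genes) and 6 higher. With median centring 2 of these subunits were lower (18.2%, against 47.5%) and 9 higher. Their median was 0.29 with median centring, 0.47 with the trend in GC content and length removed and 0.32 without Con replicate 2, and −0.13 without GLUP replicate 1. MT-ND3, a complex I subunit of the mitochondrial genome, had 585, 496 and 537 FPKM in Con and 1540, 1112 and 1337 FPKM in GLUP (1.29, SE 0.25, adjusted p 0.194). MT-CO3 was at 0.90 (SE 0.31), and MT-CO2, a catalytic subunit of complex IV, at −0.39 (SE 0.15). Together these 11 genes took 20.8 to 22.3% of the FPKM total in Con and 15.4 to 21.9% in GLUP, and no difference between nuclear and mitochondrial subunits was tested.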

How the data were processed

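Total RNA of 6 HGC-27 samples was sequenced, and samples were grouped by title (3 Con, 3 GLUP). The authors deposited 1 table of FPKM values per gene. Per the labels, the processing notes of the submitters name HISAT2, Cufflinks and RSEM with GRCh38.p10, without versions or roles, whereas 53057 of the 62492 row identifiers carry the suffix of a GENCODE annotation lifted to GRCh37. The study analysed the reads on an online platform, and strand use is not given in the sources used here. The 49 chromosome Y pseudoautosomal rows were added to their X counterparts. FPKM is relative to the library total and holds no counts, so count models were not used.

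Symbols were matched for 62162 genes. Lengths, GC content, overlaps and copies came from GENCODE 44 lifted to GRCh37, and upstream sequences from RefSeq GRCh38.p14 (51 of 59 members matched, 50 of them with their first exon bases found in the matching transcript). Values were transformed as log2(FPKM + 1), the 7406 genes that averaged 1 FPKM or more were kept, and GLUP was compared with Con in limma 3.58.1 (lmFit, eBayes with trend, R 4.3.3, two-sided, no covariates), with Benjamini-Hochberg adjustment over all genes kept and a threshold of 0.05. The fitting code was tested on simulated data. Tables were made with Python 3.11.15. No set test was run. An exact permutation test of 3 against 3 cannot give a p under 0.1 and was not used.

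The members, the other gene lists and the named genes were chosen with earlier results of these data known. Named with values were 17 core subunits, the 3 highest and 3 lowest fold changes in complexes I, III and IV, and up to 2 of each in the other lists. NDUFA3, NDUFA11, NDUFA13, NDUFB6, NDUFB8, NDUFB9, UQCRQ, CYCS, NDUFA4, NRF1 and the isoforms listed near 0 were named after their values were seen. Other pseudocounts, filters, scalings, variance estimates, removal of a loess trend (span 0.5) in GC content and length, the replicate number as block and leaving out each library were tried (21 alternatives).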

Additional observations from a re-analysis of the deposited data

How the results depend on the processing

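Over the 21 alternatives, 33 of the 59 members kept the sign of their fold change. No member passed the adjusted threshold in any alternative but one: leaving out each library in turn gave 0 to 8 members called, and 0 to 1367 genes of the whole table, both highest without Con replicate 3. Of all genes, 1 passed when the minimum was 5 FPKM, when eBayes had no trend, after removal of the GC and length trend, and with the replicate block (with or without that removal). Leaving out 1 library gave 4 to 10 lower and 1 to 6 higher members at an unadjusted p under 0.05. The 4 and 10 were 6.78% (against 8.91% of all genes, without GLUP replicate 1) and 16.9% (against 31.5%, without Con replicate 3). The 1 and 6 were 1.69% (against 3.07%, without GLUP replicate 3) and 10.2% (against 8.86%, without Con replicate 3). Members without overlap numbered 10 to 20 (lower) and 4 to 9 (higher). The 10 and 9 came without GLUP replicate 1 (16.9%, against 28.8%, and 15.3%, against 9.49%). The 20 and 4 came without GLUP replicate 3 (33.9%, against 30.5%, and 6.78%, against 12.8%). A smaller group overlaps less often by construction. Centring on the median, the upper quartile and the trimmed mean of log ratios each left 3 lower and 5 higher members at an unadjusted p under 0.05 (5.08 and 8.47%), against 7.71 to 8.84% and 10.2 to 11.3% of all genes. They left 5 lower members without overlap (8.47%, against 13.2 to 14.6%). With totals taken without mitochondrially encoded genes 14 lower members did not overlap (23.7%, against 23.8% of all genes), and after removal of the GC and length trend 7 higher ones did not (11.9%, against 15.4%), with or without the replicate block.

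Scaling moved the medians. Under median centring, upper quartile and trimmed mean, the member median was 0.12, 0.14 and 0.15, that of complex I 0.20, 0.22 and 0.23, and that of complex III −0.053, −0.025 and −0.016; complex IV had 0.039 and 0.048 under the last pair. With the GC and length trend removed, the medians of the members and of complex IV were 0.087 and 0.14, unchanged by the replicate block. With no filter the median of all genes also covered genes below the minimum for testing, while the fold changes of the members stayed the same. Relative to that wider median the members were at −0.14, complex I at −0.055 and complex III at −0.31. Relative to the median of the tested genes, complex III was at −0.29 with quantiles and at −0.30 with the trend removed.

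Named members near 0 changed sign. Under median centring, upper quartile and trimmed mean, SDHB was 0.061, 0.087 and 0.095, CYC1 0.055, 0.061 and 0.068, UQCRC2 0.14, 0.16 and 0.16, and COX5A 0.12, 0.14 and 0.15. With quantiles CYC1 was 0.075 and UQCRC2 0.11. With the trend removed, with or without the replicate block, SDHB was 0.11, UQCRC2 0.35 and COX5A 0.21. NDUFS1 was −0.000442 with totals without mitochondrially encoded genes. Leaving out a library gave NDUFS1 −0.088 to 0.20, NDUFS7 −0.19 to 0.54, CYC1 −0.76 to 0.16, UQCRC2 −0.26 to 0.096 and COX5A −0.32 to 0.0044. The cause of these changes was not tested.

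No pairing followed from the replicate numbers, since deviations of samples of the same number correlated at 0.13, −0.01 and −0.17. The replicate block called 0 members. FPKM without counts, 3 samples a group, an odd Con replicate 2 and an unknown depth limit what can be said of single members, most of all of those under 10 FPKM such as NDUFS1, NDUFV3 and SDHA.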

Other observations

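Tissue-restricted forms of the subunits were mostly near 0 in these cells. COX6A2 and COX7A1, the forms typical of heart and skeletal muscle, were listed at 0 in all 6 libraries, and COX4I2, COX6B2, COX7B2 and COX8C had at most 0.420 FPKM in any library. NDUFA4L2, a relative of NDUFA4 known for its response to hypoxia, lay at 0.134 to 0.202 FPKM in Con and at 0.270 to 0.477 FPKM in GLUP, below the minimum for testing. NDUFA4 itself, counted with complex IV, had 1188 to 1595 FPKM in Con and 1004 to 1190 FPKM in GLUP (log2 fold change −0.33, SE 0.24 in limma). COX7A2L, which takes part in supercomplexes of complexes III and IV, had 54.3, 37.9 and 35.2 FPKM in Con and 24.7, 25.4 and 21.3 FPKM in GLUP (−0.79, SE 0.30, adjusted p 0.199 in limma).

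Of 11 transcriptional regulators of respiratory genes, 5 passed the minimum for testing, and none had an unadjusted p under 0.05 in limma. GABPB1, a subunit of the ETS family factor GABP, had 18.9, 10.6 and 13.6 FPKM in Con and 9.76, 7.95 and 8.11 FPKM in GLUP (−0.65, SE 0.30), without overlap. PPRC1, a coactivator related to PGC-1, was at 0.59 (SE 0.33), with Con replicate 2 the lowest library. It had 3.24, 0.972 and 1.85 FPKM in Con and 3.61, 2.32 and 4.37 FPKM in GLUP. NRF1, whose motif was searched in the promoters, had 0.396 to 0.495 FPKM in Con and 0.583 to 0.760 FPKM in GLUP, below the minimum.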
